A study of Mus musculus with 6 samples.

Results

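The cytosolic ribosomal protein genes were examined in the lung of mice labelled CCSP/TGFalpha and of controls labelled CCSP/-. Members were the rows of the deposited count table whose gene identifier maps to a mouse protein-coding symbol made of Rpl or Rps, a number and at most the letter a, l or x, together with Rplp0, Rplp1, Rplp2 and Rpsa. The rule gave 81 genes of the 24061 rows, with 50 in the large subunit and 31 in the small subunit. The rule uses the symbol and the protein-coding class in RefSeq, and no count values. Rps4l has a fitting symbol but is a transcribed pseudogene in RefSeq and was left out. Of the 81 members, 79 passed the filter on low counts and were tested. Rpl10l, a paralog known from testis, had 0 counts in all 6 libraries. Rpl39l, another paralog known from testis, had 1, 8 and 7 counts in control libraries 1 to 3 and 0, 17 and 0 in TGFalpha libraries 1 to 3.

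Each cytosolic ribosome is built from a small subunit, which reads the messenger RNA, and a large subunit, which joins amino acids. Ribosomal proteins are made in matching amounts because most are used only inside the particle, and their messengers carry a terminal oligopyrimidine (TOP) tract, a cytosine at the cap followed by a run of pyrimidines. The TOP tract places translation of these messengers under the control of the mTOR kinase, while the transcription factors of the Myc family are known to act on ribosomal protein genes and on ribosome assembly genes.

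The messenger RNA of lung was sequenced in 2 groups of 3 libraries. The control group had the genotype CCSP/- and the other group the genotype CCSP/TGFalpha, and animals of both groups received doxycycline over 3 weeks. CCSP stands for a protein secreted by club cells of the airway, and in mouse lines of this kind its promoter drives a doxycycline-dependent activator in lung epithelium that switches on a TGFalpha transgene. TGFalpha is a ligand of the epidermal growth factor receptor. Both groups therefore share the CCSP part of the genotype and the doxycycline. Ages were not given in the labels, and nothing in them says that each library stands for its own animal. The p-values reflect library spread alone, which may be technical.

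Libraries held 21479006 to 24914322 counts. The Tgfa row held 26.4, 22.6 and 28.4 CPM (counts after library size scaling, a relative level) in control libraries 1 to 3 and 26.6, 25.9 and 29.8 CPM in TGFalpha libraries 1 to 3. The groups overlapped, with a log2 fold change of 0.09 ± 0.16 (SE, adjusted p = 0.739). Whether transgene transcripts were counted in that row is not given in the sources used here, so it does not check the labels. Lung markers were present in every library, with 11054 to 14820 CPM summed over 6 alveolar type 2 genes and 3942 to 10111 CPM over 3 club cell genes. Control replicate 1 and TGFalpha replicate 1 stood apart in skeletal muscle transcripts, with 1361 and 2267 CPM summed over 7 muscle markers, against 52.0 to 68.9 CPM in the other 4 libraries.

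Around the transcription start, some members show a pyrimidine tract, the feature for which this family is known. The windows below hold 15 bases before and 15 bases from the RefSeq start on GRCm38.p6, with the pyrimidine tract in capitals. They are shown for the members that rose in the TGFalpha group, and for those among the 5 smallest fold changes, in which a tract of a cytosine and at least 5 further pyrimidines begins within 5 bases of the start. The first 7 belong to members that rose, and Rps27, Rpl38 and Rps21 did not pass the test.
Rps18 (chr17:33955651-33955680, minus strand): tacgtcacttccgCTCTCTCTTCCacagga
Rplp2 (chr7:141447636-141447665, plus strand): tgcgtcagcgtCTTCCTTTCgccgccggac
Rps2 (chr17:24720048-24720077, plus strand): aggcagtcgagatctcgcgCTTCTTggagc
Rpl13a (chr7:45128731-45128760, minus strand): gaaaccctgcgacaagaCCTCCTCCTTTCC
Rpl18 (chr7:45718056-45718085, plus strand): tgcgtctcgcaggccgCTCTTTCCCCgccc
Rps6 (chr4:86857353-86857382, minus strand): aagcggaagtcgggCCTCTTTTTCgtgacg
Rps9 (chr7:3704026-3704055, plus strand): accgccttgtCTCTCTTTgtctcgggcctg
Rps27 (chr3:90213634-90213663, minus strand): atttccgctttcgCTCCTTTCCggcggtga
Rpl38 (chr11:114668565-114668594, plus strand): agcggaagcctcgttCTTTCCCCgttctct
Rps21 (chr2:180257364-180257393, plus strand): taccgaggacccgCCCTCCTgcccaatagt

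A tract stood near the start both in members that rose and in members that did not. The windows above were chosen for holding one, and only the tract of Rpl38 begins at the listed start itself. Among members that rose, no tract was found in the windows of Rpl5, Rpl22, Rpl23, Rpl36a, Rpl41, Rplp0, Rps3 and Rps7. RefSeq windows were matched for 61 of the 81 members, which had 73 listed starts. A cytosine followed by at least 5 pyrimidines, searched on the transcribed sense strand, was found in 50.7% of the 73 member windows and in 22.5% of 32851 windows of all genes. For the members that rose the share was 12 of 23 windows (52.2%). The shorter motif CTTTCC, which can lie inside such a tract, was in 13.7% of member windows and 1.42% of all windows. Over the full 300 bases and both strands, CCGGAAG, a core recognised by ETS factors, was in 35.6% of member promoters and 8.86% of all promoters. CACGTG, the E-box that Myc proteins can bind, was in 11.0% and 7.15%. These matches describe letters in a window and not binding.

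Ribosomal protein transcripts took a larger part of every TGFalpha library than of any control library. They made up 1.69, 1.26 and 1.58% of all counts in control libraries 1 to 3. In TGFalpha libraries 1 to 3 they made up 3.78, 2.34 and 2.17%. The groups did not overlap, and TGFalpha library 1 was well above the other two. The means were 1.51% ± 0.22 and 2.76% ± 0.881 (SD, n = 3 each), a ratio of 1.83. When the 20 most abundant other genes were taken out of the total, the shares were 1.92, 1.46 and 1.78% against 4.19, 2.64 and 2.40%. In whole lung, more cells of a type and more RNA per cell cannot be told apart.

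By gene, 25 of the 79 tested members rose in the TGFalpha group and 0 fell, where 5.03% of all 16089 genes tested rose and 3.29% fell (8.33% in either direction). No member was lower at an unadjusted p under 0.05 either, and DESeq2 also called 0 lower, against 7.3% of all genes. Without adjustment, 59 members were higher at a p under 0.05, against 14.2% of all genes. The log2 fold change was above 0 for 78 of 79 members, against 50.9% of all genes, and Rps27l was the exception. The median log2 fold change was 0.88 over the members, a ratio of 1.84, and 0.01 over all genes tested. The middle 50% of members lay between 0.71 and 0.99, and the middle 50% of all genes between -0.35 and 0.34. All 3 TGFalpha libraries were above all 3 control libraries for 52 members and below them for 0, against 17.7% and 15.5% of all genes. DESeq2 called 55 of 80 members higher, against 7.63% of all genes. The edgeR count of 25 changed with the library left out. It was 8, 1 and 0 when control replicates 1, 2 and 3 were dropped in turn, and 7, 11 and 24 when TGFalpha replicates 1, 2 and 3 were. The shares of all genes called higher in these fits were 3.24%, 1.6% and 1.24%, and 1.94%, 2.51% and 3.67%, in the same order. The 1 member called with control replicate 2 dropped was Rpl36a. With control replicate 3 dropped, 50 members were higher at an unadjusted p under 0.05 and 78 had a log2 fold change above 0. Of the 25 members that rose, Rpl36a passed in 5 of these 6 fits, Rpl22 and Rps18 in 4, and Rpl8, Rpl14 and Rps9 in 0.

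**Figure D1:**
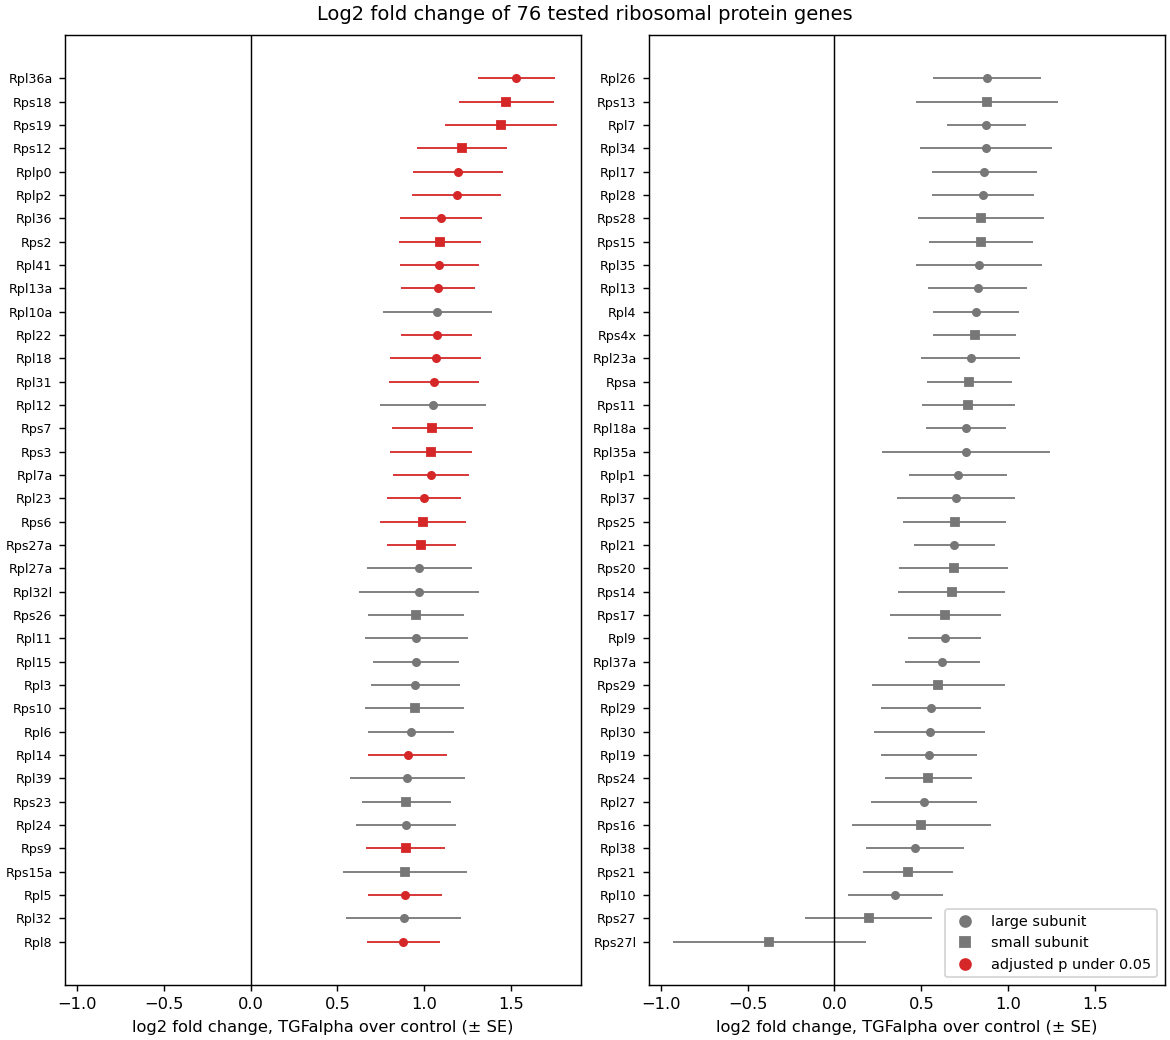
Log2 fold change of the TGFalpha group over the control group (horizontal axis, with SE) for 76 tested ribosomal protein genes, ordered by size and split over 2 panels. Circles are large subunit, squares small subunit and red marks an adjusted p under 0.05. Rpl3l is left out because its SE is 1.61, and 2 other members are not shown. All genes shown but Rps27l lie to the right of 0, and the values run from -0.37 to 1.53.

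In the large subunit, 14 of 48 tested members rose, with a median log2 fold change of 0.88. They were Rpl5, Rpl7a, Rpl8, Rpl13a, Rpl14, Rpl18, Rpl22, Rpl23, Rpl31, Rpl36, Rpl36a, Rpl41, Rplp0 and Rplp2, with log2 fold changes from 0.88 for Rpl8 to 1.53 for Rpl36a. Rpl8 lies close to the peptidyl transferase centre. Rpl36a, a small zinc-binding protein near the exit site for transfer RNA, had the highest log2 fold change and the lowest adjusted p of the family. Its levels were 124, 135 and 118 CPM in control libraries 1 to 3 and 466, 259 and 364 CPM in TGFalpha libraries 1 to 3. The lowest TGFalpha library was far above the highest control library. The log2 fold change was 1.53 ± 0.22 (SE, adjusted p = 0.00772). Its adjusted p was 0.0595 without control replicate 3. The gene (identifier 19982) lies at chrX:134585654-134588062 on GRCm38.p6. Most of its sequence is shared: 85.5% of its 50-base windows occur in another annotated gene.

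Log2 fold changes are given in parentheses with their SE. Among the other large-subunit members that rose, Rpl22 had 150, 138 and 132 CPM in control libraries and 388, 240 and 256 CPM in TGFalpha libraries (1.07 ± 0.21, adjusted p = 0.0225). Rpl13a, which is also known from a complex that holds back translation of inflammatory messengers, had 189, 214 and 197 CPM against 559, 375 and 330 CPM (1.08 ± 0.21, adjusted p = 0.0245). Rpl23, on the face that meets the small subunit, had 173, 147 and 149 CPM against 417, 266 and 255 CPM (0.998 ± 0.213, adjusted p = 0.0314). In all 3 genes the controls lay close together, TGFalpha library 1 was highest, and libraries 2 and 3 were near each other and above every control. Rpl7a had 139, 103 and 117 CPM against 322, 215 and 201 CPM (1.04 ± 0.22, adjusted p = 0.0285). Rpl31, beside the exit of the peptide tunnel, had 173, 156 and 158 CPM against 488, 283 and 240 CPM (1.05 ± 0.26, adjusted p = 0.045). Rpl36 was lower in level, with 58.2, 57.1 and 58.8 CPM against 172, 112 and 87.9 CPM (1.10 ± 0.24, adjusted p = 0.0326). The groups did not overlap in these genes either, and TGFalpha library 3 was the lowest of its group in each.

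Rplp0, Rplp1 and Rplp2 form the stalk that calls elongation factors to the ribosome, with Rplp0 at its base and the other two as paired acidic proteins. Rplp0 had 443, 336 and 386 CPM in control libraries and 1255, 700 and 714 CPM in TGFalpha libraries. All TGFalpha libraries were above all controls, and TGFalpha library 1 was set apart from the other two. Its log2 fold change was 1.20 ± 0.26 (adjusted p = 0.0322). Rplp2 had 97.2, 84.0 and 92.0 CPM against 299, 149 and 173 CPM, without overlap (1.19 ± 0.26, adjusted p = 0.0326). Its partner Rplp1 had 271, 190 and 263 CPM against 523, 421 and 242 CPM. TGFalpha library 3 lay below 2 of the controls, and Rplp1 did not pass the test (0.71 ± 0.28, adjusted p = 0.151).

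Rpl5 and Rpl11 bind 5S ribosomal RNA, and the particle they form can also hold the p53 regulator Mdm2. Rpl5 had 794, 876 and 751 CPM in control libraries and 1888, 1191 and 1403 CPM in TGFalpha libraries. The groups did not overlap (0.89 ± 0.21, adjusted p = 0.0425). Rpl11 had 184, 171 and 174 CPM against 530, 233 and 263 CPM. These groups did not overlap either, but the spread within the TGFalpha group was wide and the test was not passed (0.95 ± 0.30, adjusted p = 0.0855). Of the 50-base windows of Rpl5, 93.8% occur in another gene.

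In the small subunit, 11 of 31 tested members rose, again with a median log2 fold change of 0.88. Among them were Rps2, Rps3, Rps6, Rps7, Rps9, Rps12, Rps18, Rps19 and Rps27a, with log2 fold changes from 0.89 for Rps9 to 1.47 for Rps18. Rps2 and Rps3 line the entry channel for messenger RNA. Rps18, in the head of the subunit, had 157, 144 and 134 CPM in control libraries and 595, 298 and 313 CPM in TGFalpha libraries. The groups were well separated (1.47 ± 0.27, adjusted p = 0.02). Rps19, also in the head and known as a gene mutated in Diamond-Blackfan anaemia, had 136, 177 and 130 CPM against 628, 265 and 311 CPM. Its groups did not overlap, and the TGFalpha libraries differed from each other by more than the gap between the groups (1.44 ± 0.32, adjusted p = 0.036). Rps12 followed with 188, 204 and 188 CPM against 657, 343 and 348 CPM (1.22 ± 0.26, adjusted p = 0.0317).

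Rps2, which is shown above with a pyrimidine tract downstream of its start, had 318, 304 and 267 CPM in control libraries and 866, 503 and 523 CPM in TGFalpha libraries (1.09 ± 0.23, adjusted p = 0.0315). Rps7, which acts in the maturation of small-subunit RNA, had 252, 211 and 228 CPM against 657, 367 and 404 CPM (1.05 ± 0.24, adjusted p = 0.0361). In both genes the groups did not overlap and TGFalpha library 1 was the highest library. Rps9 had the weakest call, with 232, 189 and 211 CPM against 534, 311 and 329 CPM (0.89 ± 0.23, adjusted p = 0.0499).

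Rps6 is the member phosphorylated by the S6 kinases downstream of mTOR. It had 405, 432 and 380 CPM in control libraries and 1130, 596 and 695 CPM in TGFalpha libraries. There was no overlap (0.99 ± 0.25, adjusted p = 0.0464). Rps27a is translated as a fusion with ubiquitin and so also supplies that protein. Its levels were 644, 503 and 654 CPM against 1421, 1118 and 1020 CPM, without overlap and with the TGFalpha libraries closer together than for Rps6 (0.98 ± 0.20, adjusted p = 0.0273). Rpsa, which also carries the name laminin receptor, had 205, 140 and 189 CPM against 413, 274 and 230 CPM. Its groups did not overlap, but it did not pass the test (0.78 ± 0.25, adjusted p = 0.0899).

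**Figure D2:**
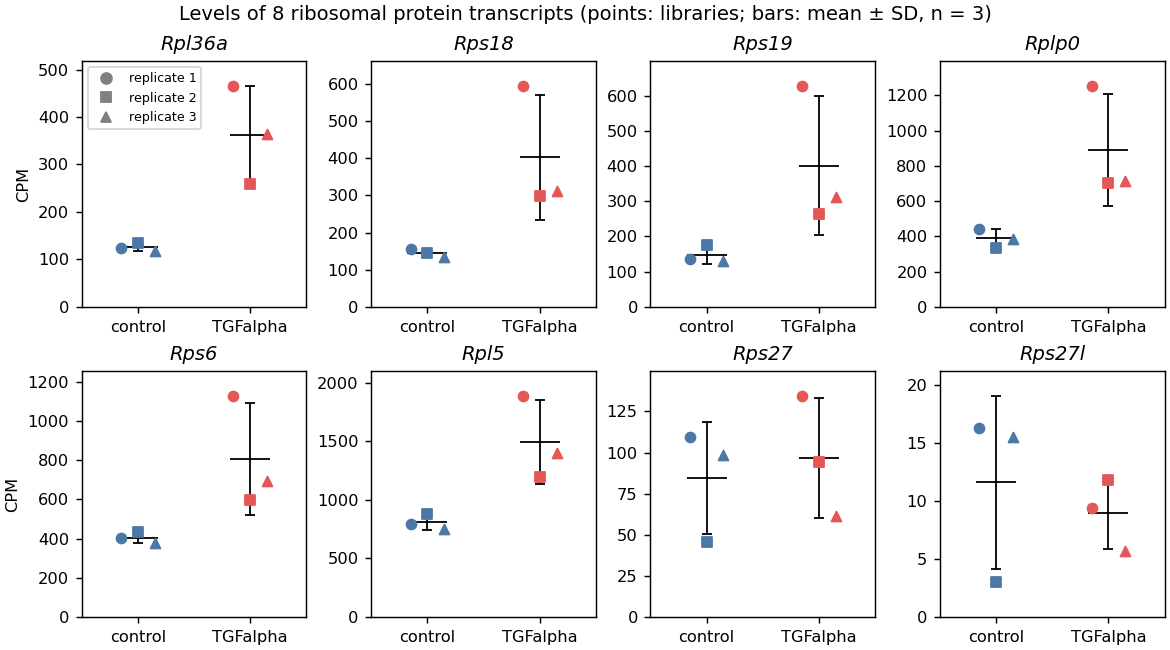
CPM (vertical axes, from 0) of 8 ribosomal protein transcripts in the control and TGFalpha groups, with each library as a point whose shape gives its replicate number and bars for the mean ± SD (n = 3). The upper row and Rps6 and Rpl5 show no overlap between groups and TGFalpha replicate 1 on top, while Rps27 and Rps27l overlap.

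The 5 lowest log2 fold changes belonged to Rps27l, Rps27, Rpl10, Rps21 and Rpl38, and none passed the test. Rps27 and its paralog Rps27l, a gene known to be induced by p53, are small zinc-finger proteins of the small subunit. Rps27 had 109, 45.6 and 98.4 CPM in control libraries and 135, 94.3 and 61.5 CPM in TGFalpha libraries. The groups overlapped fully apart from TGFalpha library 1, and the sign of the fold change was not stable (0.20 ± 0.37, adjusted p = 0.763). It was -0.10 without control replicate 2 and -0.12 without TGFalpha replicate 1. Rps27l had 16.3, 3.02 and 15.5 CPM against 9.39, 11.8 and 5.65 CPM (-0.37 ± 0.56, adjusted p = 0.701). Control library 2 held its lowest value and the other 2 controls its highest.

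Rpl10 is among the last proteins to join the large subunit. It had 378, 211 and 360 CPM in control libraries and 498, 419 and 294 CPM in TGFalpha libraries, with TGFalpha library 3 below 2 controls (0.35 ± 0.27, adjusted p = 0.439). Rps21 had 277, 228 and 256 CPM against 473, 325 and 223 CPM (0.42 ± 0.26, adjusted p = 0.33). Rpl38, known for its part in the translation of Hox messengers, had 257, 188 and 236 CPM against 458, 269 and 211 CPM (0.46 ± 0.28, adjusted p = 0.329). TGFalpha library 3 lay below the lowest control for Rps21 and among the controls for Rpl38, and the other 2 TGFalpha libraries were above all controls for both genes.

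Whether members departed from the family as a whole was tested by scaling every library to the summed counts of the members. On that scale 0 of 79 members were called higher and 0 lower, where 1.5% of all 16089 genes were called higher and 29.2% lower. At an unadjusted p under 0.05, 1 member differed, Rps27l, at -1.13 ± 0.45 on the log2 scale (adjusted p = 0.0584). Rpl36a followed at 0.66 ± 0.36 (adjusted p = 0.133) and Rps27 at -0.66 ± 0.36 (adjusted p = 0.134). Rps27l passed the threshold in that scaling without control replicate 2 (-1.55, adjusted p = 0.0335) and without TGFalpha replicate 2 (-1.52, adjusted p = 0.0376). The spread in that test is partly shared over all genes, whose levels on that scale vary with the family sum. Rpl7, for example, had an SE of 0.34 there and of 0.23 in the main fit. Small departures could therefore be missed. A p that misses the threshold does not show that the other members moved by the same amount.

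The rise was not of one size in the 3 TGFalpha libraries. Taken as the log2 level against the mean of the controls, the median member stood at 1.40 in TGFalpha library 1, at 0.69 in library 2 and at 0.45 in library 3. The controls themselves stood at 0.19, -0.26 and 0.07. TGFalpha library 1 held the highest value of 77 of the 79 members, and control library 2 the lowest value of 63. TGFalpha library 1 was above all controls for 78 members, library 2 for 76 and library 3 for 52. In each of the 27 members whose groups overlapped, TGFalpha library 3 was at or below the highest control, and 24 of the 27 had no overlap once it was left out. The median log2 fold change was 1.07 without TGFalpha replicate 3, 0.72 without control replicate 2 and 0.53 without TGFalpha replicate 1.

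**Figure D3:**
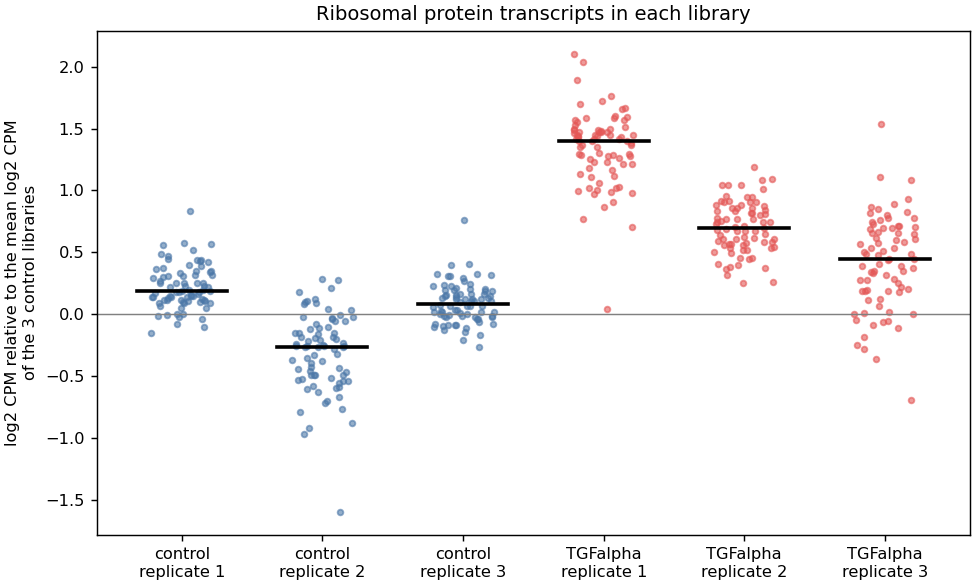
Log2 CPM relative to the mean log2 CPM of the 3 control libraries (vertical axis) for 78 ribosomal protein transcripts in each of the 6 libraries, with Rpl3l left out. Points are genes and black lines the medians. The median line steps from 1.40 in TGFalpha replicate 1 to 0.45 in TGFalpha replicate 3 and lies at -0.26 in control replicate 2.

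TGFalpha library 1 and control library 1 were also the libraries with skeletal muscle transcripts. With both left out, 4 members rose, Rpl7a, Rpl22, Rpl36a and Rps18, against 1.91% of all genes. The median log2 fold change of the members was then 0.67, and 50 of 78 tested members were higher at an unadjusted p under 0.05. Other cell type markers also moved with the groups. All 5 red cell markers were lower in every TGFalpha library and 4 of the 5 fell, with a sum of 17352 to 39860 CPM in controls and 7265 to 12792 CPM in TGFalpha libraries. The Hba-a1 and Hba-a2 rows were equal in the controls, both at 3683, 8718 and 6911 CPM. The Hbb-bs and Hbb-bt rows were nearly equal, at 4980 and 4901 CPM in control library 1. The 4 calls are therefore not separate measurements, and the sums may count reads more than once. Of 6 fibroblast markers 5 rose, with sums of 1375 to 1576 CPM and 5239 to 8498 CPM. Of 6 endothelial markers 3 fell, with sums of 1861 to 3441 CPM and 984 to 1778 CPM. Of 6 cell cycle markers 2 rose, Ccnb1 and Cdk1, with sums of 124 to 182 CPM and 213 to 243 CPM. In the epithelium, 3 of 5 ciliated cell markers, 2 of 6 alveolar type 1 markers and 1 of 3 club cell markers fell. Of 3 mesothelial markers 1 rose, Wt1. In the alveolar type 1 and the mesothelial group, 1 marker each went the other way without passing. The alveolar type 1 marker Aqp5 was higher in every TGFalpha library (0.81 ± 0.22, adjusted p = 0.0616). The mesothelial marker Msln overlapped between groups (-0.30 ± 0.56, adjusted p = 0.611). The other alveolar type 1 markers had log2 fold changes below 0. None of the tested markers of alveolar type 2 cells, B cells, T and NK cells, macrophages or neutrophils passed the test. The part of these cell type differences in the ribosomal protein result was not tested.

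Coding length went with the level of a member in some libraries and not in others. In TGFalpha library 3 the median log2 level against the controls was 0.22 for the 37 tested members with under 450 coding bases, 0.37 for 19 members of intermediate length and 0.66 for the 22 with 600 or more. In control library 2 the medians were -0.38, -0.35 and -0.19 in the same order. TGFalpha library 1 showed no such step, with 1.40, 1.35 and 1.43. Control library 1 ran the other way, with 0.30, 0.18 and 0.15, and TGFalpha library 2 had 0.74, 0.61 and 0.68. Control library 3 had 0.07, 0.15 and -0.003. Of the short members 9 of 37 rose and of the long ones 11 of 22, and the median log2 fold changes were 0.84 and 0.93. Across 77 members the log2 level in TGFalpha library 3 and the log2 coding length had a Pearson r of 0.40 and a Spearman rho of 0.48. In control library 1 they were -0.30 and -0.31, and in TGFalpha library 2 they were -0.20 and -0.16. They were 0.26 and 0.30 in control library 2, -0.18 and -0.23 in control library 3, and 0.18 and 0.12 in TGFalpha library 1. The points of each correlation share 1 library and its depth, and genes are not replicates. Other genes with transcripts under 1 kb, 1556 in number, had medians of 0.40, 0.20 and 0.01 in TGFalpha libraries 1 to 3, and those of 4 kb or more (3616) had -0.28, -0.08 and -0.04. With each library's trend on transcript length and GC content removed, 30 members rose and the median log2 fold change was 0.74, against 5.76% of all genes called higher.

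The members spanned a wide range of levels, and their order was similar in both groups. The paralogs Rpl3l and Rps27l, and Rpl32l, which has no annotated coding length, were left out of this ranking. Per kilobase of coding sequence, the lowest of the other 76 tested members in the control group was Rpl29 at 57.2 CPM, the median 338 CPM and the highest Rpl41 at 3243 CPM. In the TGFalpha group the same genes stood at both ends, Rpl29 at 84.0 CPM and Rpl41 at 6887 CPM, with a median of 657 CPM. The log2 levels per coding kilobase in the 2 groups had a Pearson r of 0.97 and a Spearman rho of 0.94 across the 76 genes, which are not replicates. Rpl41 has a coding sequence of only 75 bases, so its value per kilobase rests on a short stretch. It had 256, 273 and 200 CPM in control libraries and 655, 512 and 383 CPM in TGFalpha libraries, without overlap (1.09 ± 0.23, adjusted p = 0.0285). Rps29 and Rpl39, also very short, came next, with 2043 and 1838 CPM per coding kilobase in controls and 3092 and 3435 CPM in the TGFalpha group. Their groups overlapped through TGFalpha library 3. Rpl39 had a log2 fold change of 0.90 ± 0.33 (adjusted p = 0.125) and Rps29 of 0.60 ± 0.38 (adjusted p = 0.35). Per kilobase of the whole transcript, the 5 highest members were Rps27a, Rps29, Rpl41, Rps24 and Rpl38. Rps24, a protein of the small subunit, had 328, 248 and 320 CPM in control libraries and 580, 425 and 299 CPM in TGFalpha libraries. Its groups overlapped through TGFalpha library 3 (0.54 ± 0.25, adjusted p = 0.204).

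Rpl3l is the paralog of Rpl3 that is known from striated muscle, where it takes the place of Rpl3 in the ribosome. It had 147, 8 and 3 counts in control libraries 1 to 3 and 240, 0 and 19 counts in TGFalpha libraries 1 to 3. Its counts were high in replicate 1 of each group, the same 2 libraries that held the muscle markers. Myh1, a fast muscle myosin, had 189, 0 and 0.0912 CPM in control libraries and 235, 0.904 and 0.0837 CPM in TGFalpha libraries. Rpl3l did not pass the test (0.77 ± 1.61, adjusted p = 0.791), and its log2 fold change was -2.42 without TGFalpha replicate 1. Rpl3 itself had 469, 444 and 448 CPM against 1251, 639 and 734 CPM. Its groups did not overlap, and it lay just outside the threshold (0.95 ± 0.26, adjusted p = 0.0588). Rps4x, an X-linked protein of the small subunit, had 392, 318 and 381 CPM against 876, 529 and 503 CPM, again without overlap (0.81 ± 0.24, adjusted p = 0.0753).

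**Figure D4:**
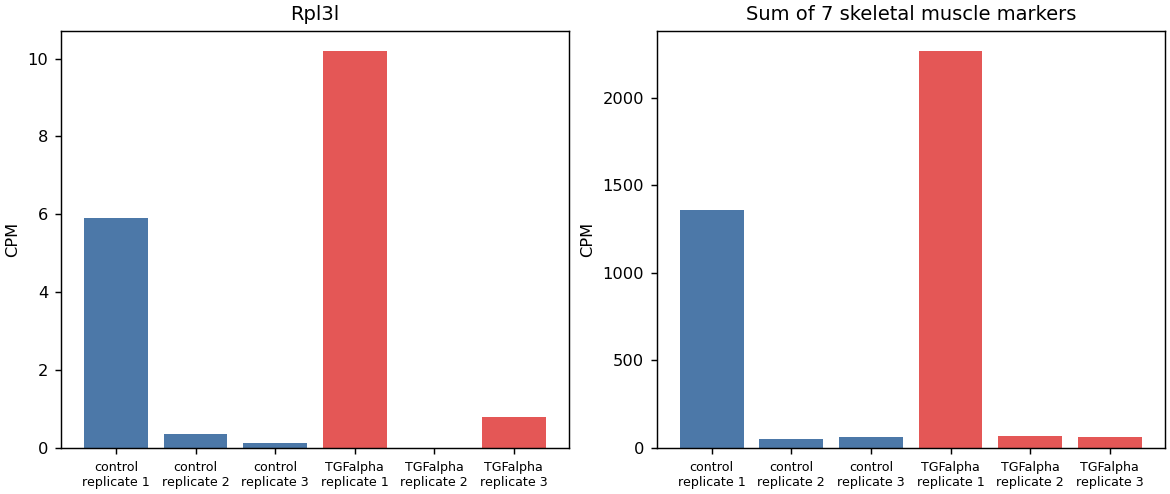
CPM of Rpl3l (left) and summed CPM of 7 skeletal muscle markers (right) in each library, as bars from 0. Both panels are high in replicate 1 of each group, with muscle sums of 1361 and 2267 CPM, and low in the other 4 libraries.

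Many members have near-identical copies elsewhere in the genome, so reads of a member and its copies could have been split or counted more than once. In 51 of the 81 members over 50% of the 50-base windows of the transcript occur in another annotated gene, and in 6 members over 90%. The Rps27rt row held 98.2 to 99.5% of the Rps27 count in every library and the Rpl34-ps1 row 98.5 to 99.9% of the Rpl34 count, as near-equal rows. Values of such members are uncertain as values of 1 gene. Members with less shared sequence had fold changes of similar size. Of the 28 tested members with under 50% of windows shared, 8 rose, and their median log2 fold change, called or not, was 0.88. Of the other 51, 17 rose, with a median of 0.88. The set under 50% still holds members such as Rpl12, with 49.4% of windows shared. It also holds Rpl37 and Rps15a, which have copy rows with nearly as many counts. The Rpl37rt row held 84.1 to 105.6% of the Rpl37 count and the Rps15a-ps6 row 88.5 to 100.6% of the Rps15a count. That set is therefore not free of shared counts. Only 7 tested members had under 20% shared, of which 3 rose, with a median of 0.88. Of all genes tested, 5.03% rose. Rps3 shares 2.96% of its windows. It had 219, 152 and 181 CPM against 503, 333 and 298 CPM (1.04 ± 0.24, adjusted p = 0.037). All its TGFalpha libraries were above all controls.

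Genes that work with the ribosomal proteins were read in the same fit. Of 8 ribosomal proteins and copies whose symbols fall outside the rule, 1 rose (12.5%) and 0 fell, with a median log2 fold change of 0.70, where 5.03% of all genes tested rose and 3.29% fell. That gene was Rack1, the scaffold protein of the small subunit, at 339, 270 and 308 CPM in controls and 961, 519 and 516 CPM in TGFalpha libraries (1.12 ± 0.26, adjusted p = 0.0409). Its groups did not overlap, and with 1 library left out it passed only without TGFalpha replicate 3. The 8 rows include Rps27rt, which held 98.2 to 99.5% of the Rps27 count and is not a separate measurement from that member. Rows such as Rps23rg1, Rpl37rt, Rpl31-ps12 and Rpl34-ps1 were not in this list. Of 23 translation factors and other transcripts known to carry a TOP tract, 6 rose (26.1%) and 0 fell, with a median of 0.66, beside the same 5.03% and 3.29%. The lowest adjusted p values among them were those of Eef1g (0.91 ± 0.19, adjusted p = 0.0294) and Eef1b2 (1.13 ± 0.25, adjusted p = 0.0335), both subunits of the factor that recharges eEF1A. Eif3m, a subunit of initiation factor eIF3, rose by less (0.73 ± 0.17, adjusted p = 0.0368), and Eef1d, another subunit of the recharging factor, by 0.79 ± 0.20 (adjusted p = 0.046). Eef1a1 itself, which brings transfer RNA to the ribosome, had a log2 fold change of 0.66 ± 0.27 and did not pass (adjusted p = 0.157). The count of 6 became 2, 0 and 0 with control replicates 1, 2 and 3 dropped in turn, and 1, 1 and 2 with TGFalpha replicates 1, 2 and 3 dropped in turn, where 1.24% to 3.67% of all genes were called higher.

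Ribosome biogenesis genes showed a smaller shift. Of 57 tested, 7 rose and 0 fell, with a median log2 fold change of 0.46, beside 5.03% and a median of 0.01 over all genes. The lowest adjusted p values were those of Wdr12, which acts in maturation of the large subunit (1.17 ± 0.21, adjusted p = 0.0186), and Grwd1, a nucleolar protein (1.23 ± 0.23, adjusted p = 0.021). Eif6, which keeps free large subunits from joining (0.76 ± 0.15, adjusted p = 0.0246), and Fbl, the methylase of ribosomal RNA (0.95 ± 0.22, adjusted p = 0.0379), also rose. Of 11 host transcripts of small nucleolar RNAs, 1 rose (9.09%, beside the same 5.03%), Zfas1 (1.20 ± 0.30, adjusted p = 0.0462), and the median was 0.72. With 1 library left out Zfas1 passed only without control replicate 1. The count of 7 biogenesis genes became 4, 0 and 0 with control replicates 1, 2 and 3 dropped in turn, and 0, 5 and 4 with TGFalpha replicates 1, 2 and 3 dropped in turn. In these fits 1.24% to 3.67% of all genes were called higher.

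In the mTOR and translation control list, 1 of 29 tested genes rose (3.45%) and 0 fell, where 5.03% of all genes rose and 3.29% fell. The median log2 fold change was 0.08. The gene that rose was Mycn, a Myc family transcription factor, with 3.69, 3.21 and 3.51 CPM in control libraries and 184, 28.2 and 151 CPM in TGFalpha libraries. Every TGFalpha library was far above every control, and library 2 was the lowest of the 3 (5.12 ± 0.65, adjusted p = 0.00503). Mycn passed the threshold in each of the 6 fits with a library left out, with an adjusted p of at most 0.0435. Myc had 15.1, 11.6 and 9.03 CPM against 14.6, 15.4 and 9.04 CPM, with overlap (0.13 ± 0.27, adjusted p = 0.795). Mtor, the kinase itself, had 48.8, 47.6 and 50.1 CPM against 35.2, 44.5 and 47.1 CPM (-0.21 ± 0.15, adjusted p = 0.407). The order of the TGFalpha libraries differed between Mycn, highest in libraries 1 and 3, and the median ribosomal protein transcript, highest in libraries 1 and 2. Both were highest in library 1. Whether Mycn had a part in the ribosomal protein result was not tested.

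**Figure D5:**
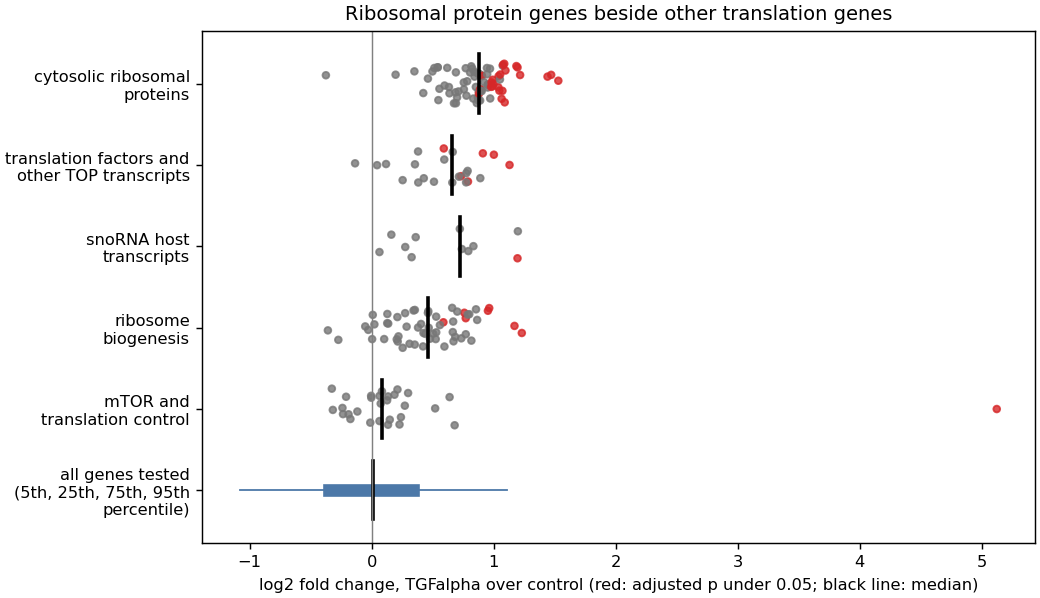
Log2 fold change of the TGFalpha group over the control group (horizontal axis) for 78 ribosomal protein genes, with Rpl3l left out, and for 4 lists of related genes, 1 point per gene, with the median as a black line and an adjusted p under 0.05 in red. The lowest row gives percentiles over all 16089 genes tested. Medians run from 0.88 for the ribosomal proteins to 0.08 for mTOR and translation control, where Mycn stands alone at 5.12.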

How the data were processed

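Whole-number read counts per gene for 6 libraries were deposited by the authors, unnormalized, in 1 table. RNA was extracted on columns and sequenced with Illumina chemistry, per the labels' protocols. The submitters' processing notes name bcl2fastq, CASAVA 1.8, TopHat, DESeq and build mm10. The counter, its strand setting, its treatment of reads with several matches and the annotation are not given in the sources used here. Genes that overlap, or lie antisense to each other, may therefore share counts.

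Identifiers were matched to RefSeq symbols on GRCm38.p6, and 85 of 24061 had none. They stayed in totals and tests. Counts were tested with edgeR 4.0.16 (R 4.3.3; quasi-likelihood F test), using TMM factors, its expression filter by group, a model of group only, Benjamini-Hochberg adjustment over all genes tested and a threshold of 0.05. CPM uses scaled library sizes. SEs come from the coefficient and its F statistic. "Rose" and "fell" mean an adjusted p under 0.05. Transcript lengths, coding lengths and shared 50-base windows came from GENCODE M21, and start sequences from RefSeq. Members, gene lists and tests were chosen with earlier results of these data known, so no list was tested as a set.

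Genes named were all members past the threshold (except 2 that are counted but not reported here by name), the 5 highest and 5 lowest fold changes, the 5 most abundant per transcript kilobase and, chosen after the data were seen, per coding kilobase, members of set roles, paralogs, and per list up to 4 called genes. Rpl29, Eef1a1, Myc, Mtor, Myh1 and the cell cycle markers were named after their values were seen. On simulated counts for this comparison (15955 genes) edgeR found 17% of the 2-fold changes and 96% of the 4-fold ones, and made 6 false calls. Alternatives were DESeq2 1.42.0, limma-voom 3.58.1, other scalings and filters, a replicate block, a length and GC correction, a robust fit, each library left out and a threshold of 0.01. Added after seeing the data were both replicates 1 left out together and members with under 50% and under 20% of windows shared. Also added then were list counts under the length and GC correction and the robust fit, and the left-out and block fits of the family scaling.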

Additional observations from a re-analysis of the deposited data

How the results depend on the processing

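The median log2 fold change of the members was positive in all 18 alternatives, from 0.53 (without TGFalpha replicate 1) to 1.07. The difference in library share was 0.75 to 1.55 percentage points with a library left out. No alternative called a member lower. The count of 25 members called higher was 55 by DESeq2, 4 with both replicates 1 left out, 1 at an adjusted p of 0.01, 0 to 24 with 1 library left out and 23 to 32 otherwise. The sign changed for Rpl3l by limma-voom (-0.50) and without TGFalpha replicate 1 (-2.42; range with a library left out -2.42 to 3.83), and for Rps27 without control replicate 2 (-0.10) and without TGFalpha replicate 1 (-0.12; range -0.12 to 0.43). With 1 library left out, 0 to 1 genes rose outside the rule, 0 to 2 translation factors, 0 to 5 biogenesis genes and 0 to 1 snoRNA hosts. In those fits 1.24% to 3.67% of all genes were called higher. With both replicates 1 left out these list counts were 0, 1, 0 and 0, beside 1.91% of all genes. DESeq2 called 4, 12, 15 and 4 in these lists and 3 for mTOR and translation control, beside 7.63% of all genes. limma-voom called 2 outside the rule, 2 for mTOR and translation control and 3 snoRNA hosts, beside 4.98% of all genes. A filter of 1 CPM in 3 libraries gave 2 outside the rule and 3 snoRNA hosts (5.48% of all genes). No filter gave 2 outside the rule (3.84% of all genes). The length and GC correction and the robust fit gave 2 outside the rule, 6 and 7 translation factors, 11 and 7 biogenesis genes, 2 for mTOR and translation control, and 2 and 3 snoRNA hosts. They called 5.76% and 5.42% of all genes higher. Relative to the family sum, 0 to 1 members were called higher (Rpl3l, without control replicate 1) and 0 to 1 lower (Rps27l) with a library left out.

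Whether replicate numbers pair the libraries cannot be told from their correlations. Same-numbered correlations were 0.42, -0.05 and 0.22, and differently numbered ones ran from -0.49 to 0.38. With the number as a replicate block, 32 members rose, and 2 genes in each of the lists outside the rule, mTOR and translation control and snoRNA hosts. That fit called 4.98% of all genes higher. With the same block, 1 member (Rps27l) was lower relative to the family sum.

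Fits with 2 libraries in a group assume that they vary like the rest. Depth did not limit the abundant members, while Rpl39l, Rpl10l and Rpl3l rest on few counts.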

Other observations

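Rows close to members but outside the rule are given here as values. The pseudogene row Rpl14-ps1 had 401, 133 and 320 counts in control libraries 1 to 3 and 256, 440 and 239 in TGFalpha libraries 1 to 3. Its highest count was in TGFalpha library 2. Rpl14 was highest in TGFalpha library 1, with 96.6, 75.3 and 95.4 CPM against 225, 142 and 133 CPM. Rpl22l1, the paralog of Rpl22, had 130, 48.5 and 117 CPM in controls and 170, 188 and 107 CPM in TGFalpha libraries (0.65 ± 0.36, adjusted p = 0.285). The difference from Rpl22, which rose, was not tested. Rpl36al, the paralog of Rpl36a, had 50.9, 30.4 and 44.0 CPM against 74.6, 52.2 and 37.7 CPM (0.39 ± 0.28, adjusted p = 0.396). The pseudogene Rps4l had 35, 44 and 57 counts against 46, 33 and 17.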
